A study of Homo sapiens with 18 samples.

Results

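H1.2-only peaks are the xChIP H1.2 peaks on chromosomes 1 to 22 and X that are shorter than 20000 bp and share no base with a peak of the other 3 deposited lists, which are xChIP H1.5 and the xxChIP lists of H1.2 and of H1.5. They were chosen by their length and by this lack of overlap, so their number, their length and their distance from the other lists are given as a description. There were 39484 of them, 28.9% of the 136842 xChIP H1.2 peaks under 20 kb (95% Wilson interval 28.6% to 29.1%, counting error only), and 563676 peaks lay on these chromosomes in all 4 lists. The cells were undifferentiated HL-60/S4, an established human promyelocytic leukemia line grown in suspension, and no treatment separated the groups. In xChIP, cells fixed with formaldehyde were sonicated and the fragments were then precipitated with the anti-H1.2 or the anti-H1.5 antibody. In xxChIP, permeabilized fixed cells received the antibody, a second fixation held it there, and only then were the cells sonicated and the complexes precipitated. Triplicates were made with either antibody under either protocol, which gives 12 immunoprecipitated samples, while 6 Input samples were left aside. For each list the peaks of the 3 replicates were merged by the authors, and the lists hold positions alone, without scores or read counts. The depth and the spread between replicates are therefore unknown, values of single samples cannot be given, no test across replicates could be made, and intervals and the 23 chromosomes describe these lists and are not replicates. Peak positions also offer no check of the cell type against its marker genes.

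Linker histones of the H1 family bind where DNA enters and leaves the nucleosome, and they help to fold the nucleosome fiber. H1.2 and H1.5 are somatic isotypes that differ mainly in their tails, and in many cells H1 is sparse at active promoters. CpG islands, stretches of sequence that are rich in G, C and the dinucleotide CpG, mark many promoters of the human genome.

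The 3 sequences below show how far the base composition of these peaks ranged. Each is the central 300 bp of 1 peak, read on the plus strand of GRCh37 (hg19), in lower case with every CpG dinucleotide in capitals. Among peaks whose center held no unknown base and no untranslated exon, they belong to the peaks of at least 1000 bp with the highest and the lowest GC content and to the peak nearest the median length and GC content.
Highest GC content, chr1:1535040-1535339, coding exon of FNDC10: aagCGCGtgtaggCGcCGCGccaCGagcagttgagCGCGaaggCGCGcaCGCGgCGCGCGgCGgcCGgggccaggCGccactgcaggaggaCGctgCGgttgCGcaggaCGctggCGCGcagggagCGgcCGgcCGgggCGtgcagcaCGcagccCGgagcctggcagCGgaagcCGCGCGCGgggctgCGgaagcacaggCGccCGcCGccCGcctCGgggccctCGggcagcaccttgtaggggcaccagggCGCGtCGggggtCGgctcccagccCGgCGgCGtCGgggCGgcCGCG
Lowest GC content, chr10:117242494-117242793, intron of ATRNL1: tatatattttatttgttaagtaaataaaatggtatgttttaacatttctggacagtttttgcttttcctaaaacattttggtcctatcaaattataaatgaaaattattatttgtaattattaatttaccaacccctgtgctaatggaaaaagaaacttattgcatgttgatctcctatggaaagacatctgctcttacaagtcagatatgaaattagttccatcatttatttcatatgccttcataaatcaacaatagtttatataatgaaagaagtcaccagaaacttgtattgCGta
Median length and GC content, chr7:3695598-3695897, intron of SDK1: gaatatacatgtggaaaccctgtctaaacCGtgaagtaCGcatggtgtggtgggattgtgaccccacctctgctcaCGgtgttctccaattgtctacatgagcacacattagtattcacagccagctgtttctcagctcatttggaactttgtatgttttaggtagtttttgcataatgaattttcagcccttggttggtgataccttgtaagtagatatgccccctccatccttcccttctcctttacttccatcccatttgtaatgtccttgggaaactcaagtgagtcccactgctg

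The window from FNDC10 held 53 CpG dinucleotides and a GC content of 81.0%, against 1 CpG and 26.7% in the window from ATRNL1. Their whole peaks, at chr1:1534666-1535713 and chr10:117241841-117243446, had GC contents of 80.3% and 26.1%. The peak in SDK1, at chr7:3694827-3696669, was of the median length of 1843 bp, with a GC content of 44.5% and 19.5 CpG per kb. High and low GC content were thus both present among the members, and the nearest peak of another list was between 2088 bp and 3820 bp away from these 3 peaks.

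H1.2-only peaks were shorter than the other xChIP H1.2 peaks. Their median length was 1843 bp, with 25% of them under 1343 bp and 25% over 2790 bp, and the 97358 other peaks under 20 kb had a median of 2507 bp. The share of xChIP H1.2 peaks found in no other list fell with length, from 37.9% of those of 1000 to 1500 bp (95% interval 37.4% to 38.4%) to 4.92% of those of 10000 to 20000 bp (4.47% to 5.42%). A longer peak has more bases with which to meet another list, so the selection itself favors short peaks, and its part in this decline was not tested. Only 1 member was shorter than 1000 bp, at chr16:32000414-32000863, with 450 bp. The members covered 95.6 Mb, which was 3.37% of the known sequence and 12.8% of all bases in the xChIP H1.2 list.

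**Figure D1:**
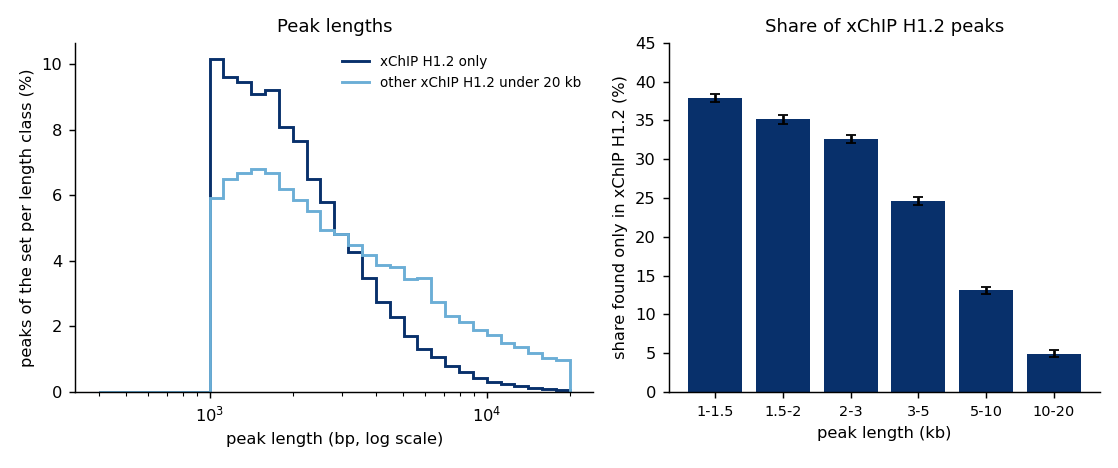
Left, peak length in bp on a log axis against the percentage of the set in each length class, with classes of equal width on the log scale, for peaks found only in xChIP H1.2 and for the other xChIP H1.2 peaks under 20 kb. Right, the percentage of xChIP H1.2 peaks found in no other list by peak length in kb, with 95% Wilson intervals as error bars; the bars fall from 37.9% to 4.92%.

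Both thresholds of the selection cut through a continuous range. At the length limit, the 3 longest members measured 19973 bp (chr5:149940856-149960828), 19934 bp and 19792 bp, and the 3 shortest peaks excluded for length measured 20100, 20154 and 20167 bp. In all, 58 peaks of 20 kb or more shared no base with another list, the longest being 51780 bp at chr17:40071952-40123731. At the overlap limit, 87 members had a peak of another list within 10 bp, and 83 excluded peaks overlapped their best matching list by at most 10 bp.

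The same selection made in turn for each other list kept 32735 peaks of xChIP H1.5 (23.7% of those under 20 kb), 27491 of xxChIP H1.2 (19.6%) and 23883 of xxChIP H1.5 (17.5%). The share was thus highest for xChIP H1.2, which also covered the most sequence. Of the xChIP H1.2 peaks under 20 kb that met another list, 14520 (10.6% of all under 20 kb) met all 3, and 20433 (14.9%) met xChIP H1.5 alone.

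Members lay near other peaks in most cases. The median gap to the nearest peak of another list was 2651 bp. It was at most 1000 bp for 20.3% of members and at most 5000 bp for 75.2%. The nearest list was xChIP H1.5 for 38.3% of members, xxChIP H1.2 for 33.1% and xxChIP H1.5 for 28.6%. Median gaps to each list ran in another order, with 5996 bp to xxChIP H1.2, 6380 bp to xChIP H1.5 and 6634.5 bp to xxChIP H1.5. At 5000 bp outside the edges of members, the xChIP H1.5 list covered 12.3% of positions, xxChIP H1.2 13.9% and xxChIP H1.5 12.4%, against 16.3%, 20.2% and 17.2% of the whole known sequence. At 50000 bp these values were 14.6%, 16.3% and 13.9%, still below those of the whole sequence. The other xChIP H1.2 peaks had 15.9%, 20.6% and 17.8% at that distance. Members were selected for lacking these lists and the other peaks for meeting them, so these values describe the selection. Members were closer to peaks of their own list than the other xChIP H1.2 peaks were, with 12.0% against 7.77% having a neighbor within 1000 bp. A domain of 20 kb or more of the xChIP H1.2 list lay within 50000 bp of 20.2% of members and of 16.6% of the others.

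Base composition differed between members and the other peaks. The selection did not use it directly. The 3 other lists together, however, covered 49.1% of sequence in 100-kb windows under 36% GC and 27.0% in those of 50% or more. Members lack these lists and the other peaks meet them, and the part of this selection in the difference was not tested. The GC content of members averaged 45.1% (SD 6.79 over 39484 peaks). It was 42.5% (SD 5.18) in the other xChIP H1.2 peaks under 20 kb and 40.9% in the known sequence as a whole. Peaks found only in xChIP H1.5 averaged 38.8%, those only in xxChIP H1.2 40.6% and those only in xxChIP H1.5 41.6%. The members were higher than the other xChIP H1.2 peaks on 23 of 23 chromosomes, by 2.48 percentage points on average (SD 0.737, range 1.31 on chromosome 18 to 4.46 on chromosome 22). The ranges of single peaks overlapped widely, since 5% of members had a GC content under 35.1% and 5% of the other peaks one over 52.1%. At least 50% of the bases were G or C in 20.6% of members and in 8.29% of the others.

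The difference in GC content was present in each length class from 1000 bp. Members of 1000 to 2000 bp averaged 44.4% and the other peaks of that length 42.4%. From 4000 to 20000 bp the averages were 47.3% and 42.9%. It was not present in every class of 100-kb windows by their own GC content. In windows under 36% members averaged 38.2% and the other peaks 38.7%, in windows of 36 to 38% the averages were 39.8% and 39.7%, and in windows of 50% or more they were 54.6% and 51.7%. The dinucleotide CpG was also denser, at 14.6 per kb in members, 11.4 per kb in the other xChIP H1.2 peaks and 9.87 per kb in the known sequence. The ratio of CpG observed to that expected from the base content was 0.278 in members, 0.250 in the others and 0.236 in the known sequence. It was 0.223, 0.215 and 0.218 in the peaks found only in xChIP H1.5, in xxChIP H1.2 and in xxChIP H1.5.

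Around the midpoints of members, the GC content had 2 maxima, of 45.2% at 450 bp on either side, with 44.5% at the center. It averaged 43.6% between 1000 and 2000 bp and 43.4% between 4000 and 5000 bp from the midpoint, so the flanks of members were also richer in G and C than the known sequence. The other xChIP H1.2 peaks had the same shape at a lower level, with 41.5% at the center and 40.9% between 4000 and 5000 bp. Maxima on either side were also present in the peaks found only in xxChIP H1.2 and only in xxChIP H1.5, whose centers were at 39.2% and 40.1% and which averaged 40.3% and 41.3% between 500 and 1000 bp. The peaks found only in xChIP H1.5 had no such maxima, with 38.8% at the center and 40.3% between 4000 and 5000 bp.

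**Figure D2:**
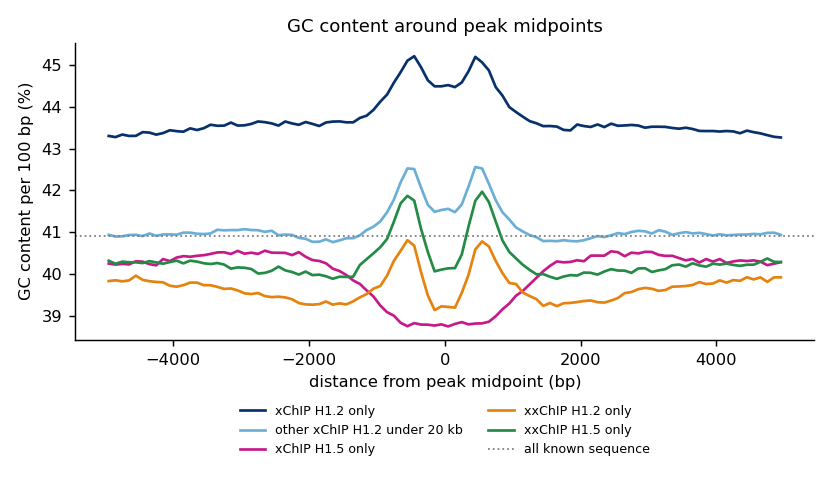
GC content in percent per 100 bp against distance from the peak midpoint in bp, for the 5 sets of peaks, with the known sequence as a dotted line. The curve of peaks found only in xChIP H1.2 lies above all others, with maxima of 45.2% at 450 bp on either side of the center.

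In words of 6 bases, counted together with their reverse complement, the same tendency appeared. Of 2080 such words, 1186 were more frequent in members than in the known sequence. A CpG was held by 99 of the 100 with the highest ratio, and by 604 of all 2080. CGGGCC had the highest ratio, with 0.181 per kb in members and 0.0914 per kb in the known sequence, 1.98 times as frequent. CCGCGG differed most from the other xChIP H1.2 peaks, with 0.0453 per kb in members and 0.0173 per kb in the others, 2.62 times as frequent. In the peaks found only in xxChIP H1.2 it occurred at 0.255 times its frequency in the known sequence. The lowest ratios belonged to TATATA and ATATAT, at 0.536 and 0.539. Words of 3 G or C bases without a CpG had a median ratio of 1.02, and words of 6 G or C bases with a CpG one of 1.89. Words with a CpG also had higher medians at equal base content, with 1.89 against 1.67 for 6 G or C bases, 1.73 against 1.49 for 5 and 1.43 against 1.26 for 4. For 6 G or C bases only 4 words had no CpG, against 32 with one. For 4 the ranges overlapped, from 1.15 to 1.76 with a CpG and from 0.946 to 1.55 without.

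The GC content of the surroundings also separated members from the other sets. Windows of 100 kb were sorted by their GC content. Members rose from 6.42 per Mb in windows under 36% to 25.1 per Mb in windows of 50% or more. Over the same classes, peaks found only in xChIP H1.5 fell from 13.7 to 7.92 per Mb, those only in xxChIP H1.2 from 9.91 to 4.09 and those only in xxChIP H1.5 from 8.06 to 4.60. The other xChIP H1.2 peaks under 20 kb showed little trend, with 30.6 per Mb in the first class, 37.5 in the class of 40 to 42% and 31.2 in the last.

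The coverage of the 4 whole lists moved with the GC content of the windows too. It rose for xChIP H1.2 from 11.6% to 53.1% of the known sequence, fell for xxChIP H1.2 from 30.5% to 6.99% and for xxChIP H1.5 from 24.7% to 7.65%, and went from 15.1% to 17.5% for xChIP H1.5. The sequence in a peak of any of the 3 other lists fell from 49.1% to 27.0%, and the share of xChIP H1.2 peaks under 20 kb that were members rose from 17.3% to 44.6%. Fewer bases in other lists leave more peaks without overlap, so the density was also read among windows with a like coverage by those 3 lists. Where they covered under 20%, members numbered 19.9 per Mb in windows with a GC content under 40% and 35.6 per Mb in windows of 45% or more. Where they covered 30 to 40%, the values were 11.5 and 18.6 per Mb. Where they covered 50% or more, the values were 5.01 and 7.57 per Mb. All xChIP H1.2 peaks under 20 kb were also denser in windows of 45% GC or more where the coverage was low, with 40.2 and 61.3 per Mb under 20% and 43.8 and 56.9 per Mb at 30 to 40%, but not at 50% or more, with 41.2 and 37.1 per Mb. The share of them that were members rose less than the density at low coverage, from 49.6% to 58.1% under 20% and from 26.2% to 32.7% at 30 to 40%, and went from 12.2% to 20.4% at 50% or more.

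**Figure D3:**
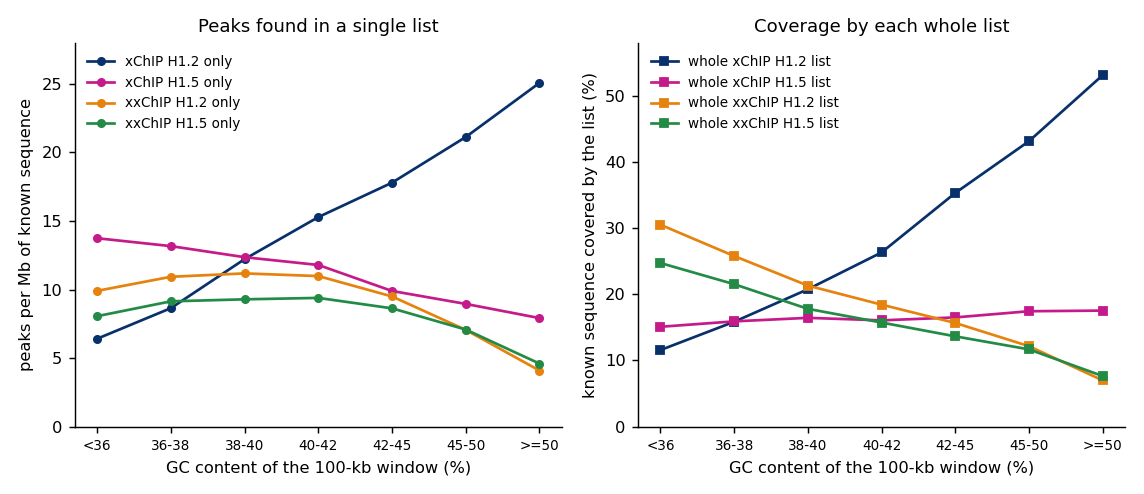
Left, peaks per Mb of known sequence in 7 classes of 100-kb windows by GC content in percent, for peaks found in a single list. Right, the percentage of known sequence covered by each whole list in the same classes. Peaks found only in xChIP H1.2 rise from 6.42 to 25.1 per Mb, while the coverage of both xxChIP lists falls.

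The density of members differed between chromosomes. It was highest on chromosome 16, with 2152 members, 27.3 per Mb and 49.4% of that chromosome's xChIP H1.2 peaks under 20 kb, followed by chromosome 17 with 23.2 per Mb and 42.6%. Chromosome 7 had the lowest density, 10.2 per Mb and 23.4%, and chromosome 4 had 10.4 per Mb and the lowest share, 21.4%. Chromosome X had a moderate density of 15.3 per Mb, yet 39.4% of its xChIP H1.2 peaks under 20 kb were members. The 3 other lists together covered the least sequence on the chromosomes with the highest shares: 25.5% on chromosome 16, 28.4% on chromosome 17 and 29.5% on chromosome X, against 46.4% on chromosome 7 and 46.9% on chromosome 4. On chromosome 16 the xChIP H1.5 list covered 7.69%, its lowest value on any of the 23 chromosomes. Across the 23 chromosomes, the density of members had a Pearson r of 0.49 and a Spearman rho of 0.37 with GC content, as a description of lists that share their cells. The part of the other lists' coverage in these differences was not tested.

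**Figure D4:**
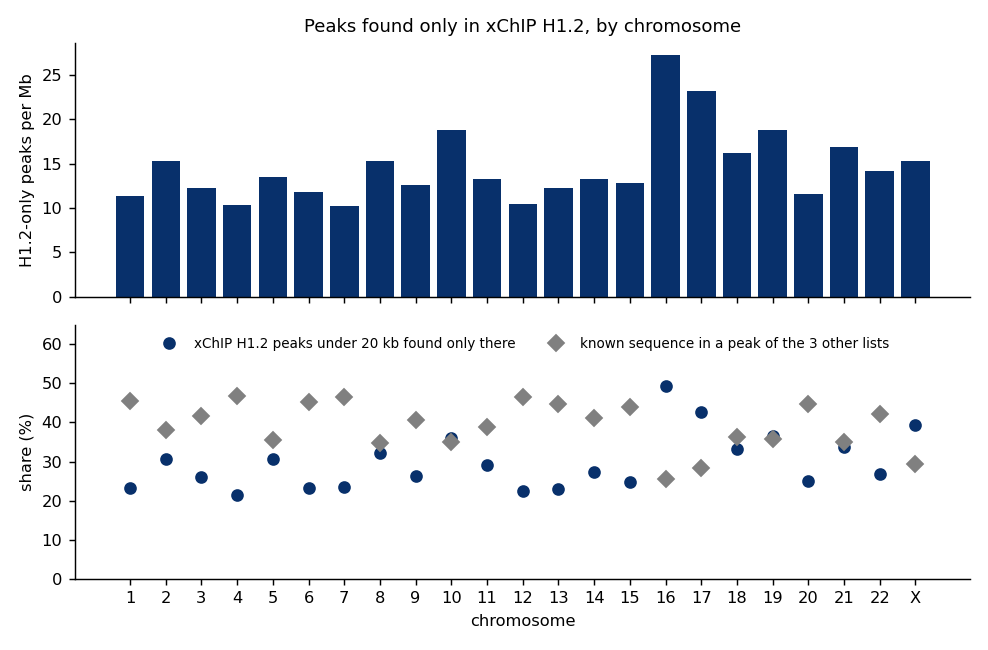
Top, peaks found only in xChIP H1.2 per Mb of known sequence for chromosomes 1 to 22 and X. Bottom, the percentage of xChIP H1.2 peaks under 20 kb found only there (circles) and the percentage of known sequence in a peak of the 3 other lists (diamonds); chromosome 16 has the highest circle, 49.4%, and the lowest diamond, 25.5%.

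At a finer scale, members were present almost everywhere. Of 2846 windows of 1 Mb with at least 500000 bp of known sequence, 7 held no member, the median was 12 and the highest 56. The 5 windows with the most members, 53 to 56 each, were all on chromosome 16. The first, chr16:89000001-90000000, held 56 members among 75 xChIP H1.2 peaks under 20 kb, with a GC content of 54.6%, and its genes include FANCA, a Fanconi anemia repair gene, and MC1R, the melanocortin receptor of pigment cells. The xChIP H1.2 list covered 36% of this window, xChIP H1.5 4.97%, xxChIP H1.2 1.23% and xxChIP H1.5 0.923%. The second, chr16:2000001-3000000, held 55 members and 48 starts of protein-coding genes, among them TSC2 and PKD1, the genes of tuberous sclerosis and polycystic kidney disease. The window chr16:11000001-12000000 held 53 members and includes CIITA, the transactivator of MHC class II genes.

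Most members stood alone, but some followed each other without a peak of another kind between them. There were 31916 such runs; 66.4% of members were alone and 11.5% were in runs of 3 or more. The longest runs had 11 members each. The run at chr16:2505722-2576951 met TBC1D24, AMDHD2 and the end of CCNF among others, and members covered 62.4% of it. The run at chr16:89927063-90018436 met SPIRE2, TCF25, MC1R, TUBB3 and DEF8, and members covered 61.8% of it. In MC1R, members covered 71% of the gene and the whole of its promoter.

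Members lay in genes more often than the other xChIP H1.2 peaks. The midpoint was in a protein-coding gene for 54.0% of members (95% interval 53.5% to 54.4%) and for 44.3% of the others (43.9% to 44.6%). It was in an intron for 49.7% against 42.8%, in a coding exon for 1.84% against 0.653%, in an exon of an untranslated region for 2.45% against 0.841%, and outside any annotated gene for 32.1% against 38.9%. Counted in bases, coding exons made up 1.92% of the members and 1.24% of the known sequence, 1.56 times its share, and intergenic sequence 0.831 times its share. In the other peaks, coding exons were at 0.603 times their share of the known sequence. Members were higher than the other peaks for genes and for exons on 23 of 23 chromosomes, by 9.46 percentage points (SD 1.78) and 2.84 percentage points (SD 1.15). Of the peaks found only in xChIP H1.5, 49.3% had their midpoint in a protein-coding gene and 3.57% in an exon. For the peaks found only in xxChIP H1.2 these values were 47.0% and 1.85%, and for those only in xxChIP H1.5 46.2% and 1.88%.

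Promoters, taken as the transcription start site (TSS) ± 1000 bp of protein-coding genes, were met by 5.11% of members (95% interval 4.90% to 5.34%) and by 2.65% of the other xChIP H1.2 peaks (2.55% to 2.75%), although members were shorter. The values for peaks found only in xChIP H1.5, in xxChIP H1.2 and in xxChIP H1.5 were 2.31%, 1.04% and 1.2%. Members were higher than the other xChIP H1.2 peaks on 23 of 23 chromosomes and in each length class from 1000 bp, with 11.3% against 5.17% for peaks of 4000 to 20000 bp. Sorted by the GC content of their 100-kb window, members met a promoter in 0.895% of cases against 0.269% in the class under 36%, and in 12.4% against 10.9% in the class of 50% or more, where the intervals met (11.4% to 13.3% and 10.1% to 11.8%). Members were selected on lying outside the other lists, and over all promoters 21.6% held an xChIP H1.5 peak, 8.78% one of xxChIP H1.2 and 7.92% one of xxChIP H1.5, against 48.2% with a peak of xChIP H1.2. The median distance from a member to the nearest start site was 56477.5 bp, against 82933.5 bp for the others.

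CpG islands were compared under 2 definitions, both called without masking repeats. The first gave 152790 islands and the second 22080. Islands of at least 200 bp with 50% GC and an observed/expected CpG ratio of 0.6 were met by 21.8% of members and by 23.7% of the other, longer xChIP H1.2 peaks, and members were higher on only 2 of 23 chromosomes, 16 and X. In each of the 7 classes of window GC content, too, fewer members than other peaks met these islands, with 8.63% against 13.4% in the first class and 44.5% against 51.7% in the last. Islands of at least 500 bp with 55% GC and a ratio of 0.65, a stricter definition called separately, were met by 5.52% of members and by 3.23% of the others, with members higher on 23 of 23 chromosomes. By window GC content, the shares for the second definition were 0.817% and 0.815% under 36%. They were 15.8% and 14.8% at 50% or more, where the intervals met (14.8% to 16.9% and 13.9% to 15.7%). In every class between these members were higher and the intervals lay apart, with 1.74% against 1.17% at 36 to 38% and 7.21% against 5.60% at 45 to 50%. With no other list within 1000 bp, 23.4% of the remaining members met the islands of the first definition. Per Mb of peak sequence, members that met them numbered 90.0 and other peaks 60.5. This measure favors the set with shorter peaks, which holds more peaks per Mb. Midpoints outside any gene were also denser in members, at 132 against 99.1 per Mb, although their share was lower. Within length classes from 1000 bp members were higher under both definitions, with 23.9% against 19.1% for the first definition and 5.66% against 2.11% for the second in peaks of 2000 to 4000 bp. The peaks found only in xxChIP H1.2 met islands of the second definition in 0.542% of cases.

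The start sites themselves were covered by a member for 5.97% of 20098 protein-coding genes, against 5.64% at 4000 to 5000 bp on either side, a ratio of 1.06. The other xChIP H1.2 peaks covered 9.05% of start sites and 13.6% of the flanks, a ratio of 0.665. For the peaks found only in xChIP H1.5, in xxChIP H1.2 and in xxChIP H1.5, the ratios were 0.685, 0.298 and 0.457. Over all start sites, the 4 other sets were lower there than on these flanks and members were not. Members too were lower at the start site than at their highest point, 6.60% at 1300 bp upstream. The other xChIP H1.2 peaks were selected for meeting lists that held peaks at fewer promoters than xChIP H1.2 did. An island of at least 500 bp lay within the promoter at 11962 start sites. There members covered 6.58% of sites and 5.95% of the flanks, a ratio of 1.11. Their coverage was highest, 7.36%, at 1500 bp upstream. At the 8136 start sites without such an island members covered 5.06% of sites and 5.17% of the flanks, a ratio of 0.979. Without an island, members too were thus slightly lower at the start site than on the flanks. Ends of genes were covered at 5.14%, the lowest point of that profile, against 6.15% at 4000 to 5000 bp, a ratio of 0.836.

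**Figure D5:**
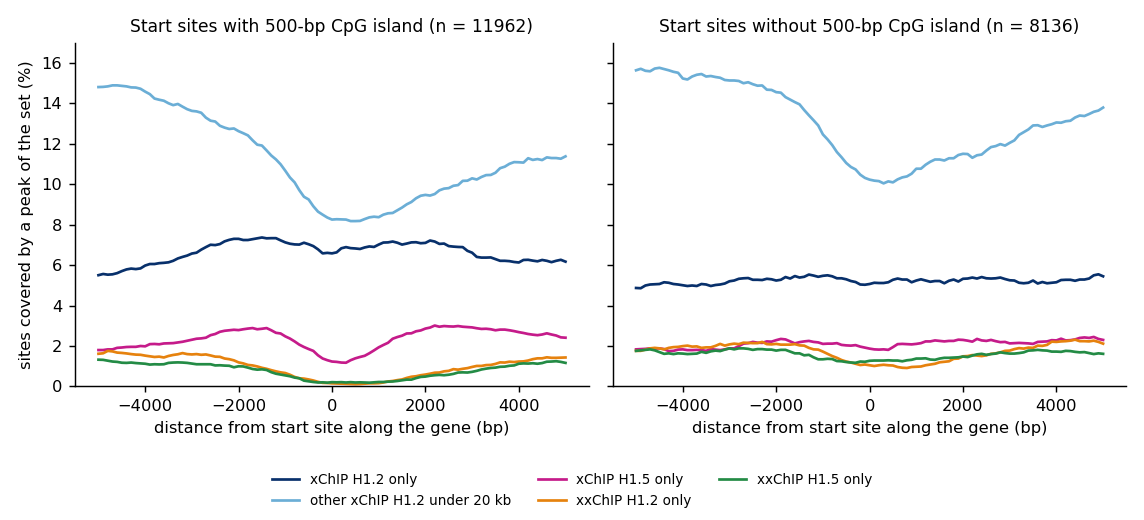
Percentage of protein-coding start sites covered by a peak of each set against distance from the start site in bp along the gene, for sites with (left) and without (right) a CpG island of at least 500 bp in the promoter. Peaks found only in xChIP H1.2 cover 6.58% and 5.06% of the sites at 0. On average between 4000 and 5000 bp on either side they cover 5.95% and 5.17%. Each of the 4 other sets is lower at 0 than on these flanks in both panels.

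Of 20098 promoters of protein-coding genes, 2234 (11.1%) were met by a member, and of their gene bodies 9414 (46.8%). A single member covered 450 promoters whole. Promoters with a CpG island of at least 500 bp were met in 12.4% of cases (95% interval 11.8% to 13.0%) and those without in 9.28% (8.67% to 9.93%). Among the 2234 promoters with a member, 4.12% were also met by the xChIP H1.5 list, 1.52% by that of xxChIP H1.2 and 1.43% by that of xxChIP H1.5, in each case beside the member. Among the 7447 promoters with another xChIP H1.2 peak and no member, these values were 38.1%, 8.94% and 8.14%. The selection sets this contrast, since members share no base with those lists and the other xChIP H1.2 peaks under 20 kb overlap at least 1 of them. The start sites of long non-coding RNAs were met within 1000 bp in 9.37% of cases, those of processed pseudogenes in 6.04% and those of small nuclear RNAs in 4.80%. Any xChIP H1.2 peak was present in 37.7%, 39.6% and 50.5% of these cases, against 48.2% for protein-coding genes.

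Of the genes of at least 20 kb, those with the largest part of their body under H1.2-only peaks included ARMC7 (86.9%), SLC66A3 (71.6%), TBC1D24 (70.5%), SDC1 (70.2%), RAD51D (70.0%), CCNF (66.6%), SRR (66.3%), WNT4 (65.7%) and MYH7 (64.2%). ARMC7, at chr17:73106047-73126367, lay under 1 member and had no base in the other 3 lists. SDC1, which encodes the cell surface proteoglycan syndecan-1, lay under 2 members, at chr2:20400558-20425194. RAD51D, a homologous recombination gene at chr17:33419240-33448541, had its promoter covered whole by a member of 18997 bp that also covered the promoter of FNDC8. CCNF encodes cyclin F, the substrate receptor of a ubiquitin ligase, and its body, at chr16:2479395-2508855, met 4 members. SRR encodes serine racemase, WNT4 a secreted signaling ligand and MYH7 the slow cardiac myosin heavy chain. Genes with at least 25% of the body under members numbered 317 of 11628 of at least 20 kb.

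The number of members per gene followed gene length. RBFOX1, a neuronal splicing regulator of 2473540 bp at chr16:5289803-7763342, met 51 members, the most of any gene, but they covered only 5.00% of it. WWOX, an oxidoreductase gene at a common fragile site, at chr16:78133297-79246564, met 31 members that covered 6.65%. The gene ENSG00000285708 met 28, FRMD4A, PTPRN2, SNX29 and TRAPPC9 met 25 each, and ENSG00000250349, GSE1 and KAZN met 24 each. GSE1, at chr16:85203131-85709810, was the densest of these, with 18.6% of its body under members and its promoter covered whole by a member of 8999 bp. Over all genes, members met 16.7% of those under 10 kb and 95.8% of those of 200 kb or more. The share of body bases under members ran the other way, from 7.34% to 3.07%, so short genes were covered more densely.

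The longest members that covered a promoter whole were 1 of 19703 bp over ZFP41 and ENSG00000264668, 1 of 19158 bp, chr10:105216650-105235807, over CALHM1, a calcium homeostasis channel gene, that of 18997 bp over RAD51D, FNDC8 and ENSG00000267618, 1 of 18984 bp over ISM2, 1 of 18739 bp over GLOD5 and 1 of 18273 bp over CHD9 and CHD9NB. GLOD5, at chrX:48620151-48632064, lay wholly under its member. CHD9, a chromatin remodeling helicase gene at chr16:53088903-53363062, met 6 members that covered 8.04% of its body. Several of these members spanned the starts of neighboring genes, so the 10 promoters named here were covered by 6 members.

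The 39 HOX genes, which encode the homeodomain factors that pattern the body axis, had the largest share of promoters with a member among the 20 gene lists, 12 of 39 or 30.8% (95% interval 18.6% to 46.4%), beside 11.1% of all promoters. The clusters contributed unequally: 5 of 9 promoters of the HOXC cluster, 3 of 9 of HOXD, 3 of 11 of HOXA and 1 of 10 of HOXB. Neighboring HOX genes share peaks, and 10 members accounted for the 12 promoters. HOXC8 lay wholly under a member of 6854 bp, chr12:54401197-54408050, and the promoter of HOXC4 was covered whole by a member of 3724 bp, chr12:54408793-54412516. The member chr12:54379172-54384600 met the promoters of HOXC10 and HOXC6, and chr7:27214937-27219495 those of HOXA9 and HOXA10. At the other end, the member near HOXA6 reached only 2 bp into its promoter. The xChIP H1.5 and xxChIP H1.2 lists met no HOX promoter and xxChIP H1.5 met 1, while 14 held an xChIP H1.2 peak of any kind and 12 of these 14 held a member. Such peaks were at 35.9% of HOX promoters and at 48.2% of all promoters, where 2234 of the 9681 promoters with one held a member. Members are by selection the peaks that lack the other lists, which were almost absent at HOX promoters. Neither the 12 of 14 nor the 30.8% is therefore independent of the selection.

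Genes of the granulocyte lineage, to which HL-60/S4 cells belong, were met by few members, since each list is small. Members met 2 of 14 promoters of azurophil granule proteins, 3 of 15 of specific and gelatinase granule proteins, 4 of 18 of myeloid transcription factors, 2 of 10 of leukocyte integrins and 2 of 14 of retinoid receptors and response genes. The intervals of all 5 shares included the 11.1% of all promoters. The promoter of SRGN, the granule proteoglycan serglycin, was covered whole by a member of 17742 bp, chr10:70831909-70849650. The promoter of MPO, which encodes myeloperoxidase, was covered to 39.9%. CEBPE, a transcription factor of late granulocyte maturation, had its promoter under a member of 5228 bp, chr14:23587294-23592521, and LCN2, the granule protein lipocalin 2, under 1 of 6197 bp, chr9:130906433-130912629. OLFM4 had its promoter covered whole, and CHI3L1 to 21.7%. Among the transcription factors, ERG was covered to 83.1%, LMO2 to 51.2% and EGR2 to 8.25% of the promoter. Of the leukocyte integrins, the promoter of ITGAD, an alpha chain of the beta-2 family, was covered whole, and that of ITGAX, the CD11c chain, to 11.4%. The promoter of RXRA, a retinoid X receptor, was covered to 40.0% and that of CYP26B1, a retinoic acid hydroxylase, to 20.2%.

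No promoter of the 7 NADPH oxidase subunits or the 17 nuclear envelope proteins was met by a member, with intervals reaching 35.4% and 18.4%. Among genes used in every cell, members met 10 of 87 promoters of cytosolic ribosomal proteins (11.5%), 5 of 39 of proteasome subunits (12.8%) and 1 of 22 of glycolysis enzymes (4.55%), the last being PGK1, beside 11.1% of all promoters. RPL22 and RPL32 had their promoters covered whole, by members of 3773 and 15134 bp, while that of PSMB2 was covered to 81.8%. Any xChIP H1.2 peak was present at 66 of the 87 ribosomal protein promoters, or 75.9%, and at 12 of the 17 nuclear envelope promoters, or 70.6%, against 48.2% of all promoters. In the cohesin and CTCF list members met 2 of 16, at ESCO2 and STAG2, with 40.0% and 34.7% of the promoter covered.

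Members met 16 of 414 promoters of olfactory receptors, 3.86% (95% interval 2.39% to 6.19%), 8 of 149 of keratins and keratin-associated proteins, 5.37% (2.75% to 10.2%), and 3 of 53 of clustered protocadherins, 5.66% (1.94% to 15.4%). The first and second intervals lay below the 11.1% of all promoters and the third included it. Peaks of xChIP H1.2 of any kind were also fewer there, at 16.9%, 26.2% and 11.3% of promoters against 48.2%. Of the promoters with such a peak, 16 of 70, 8 of 39 and 3 of 6 held a member, beside 2234 of 9681 over all genes. The olfactory receptor OR2C1, at chr16:3405889-3407306, lay wholly under a member of 7992 bp. Of the zinc finger (ZNF) genes, 50 of 509 promoters (9.82%) were met, and those covered whole included ZNF165, ZNF248, ZNF276 and ZNF318. Of T cell receptor and T cell marker genes 2 of 16 promoters were met, at CD3E and LAT, and of neuronal synapse genes 2 of 23, among them NRXN3.

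For histone genes the intervals included the 11.1% of all promoters. Members met 7 of 72 promoters of core histone genes (9.72%), with 5 distinct members, and 1 of 10 of linker histone genes. The latter was H1-2, at chr6:26055968-26056698, the gene of the histone that the antibody recognizes, with 23% of its promoter and 26.0% of its body under 1 member and no base of either in the other 3 lists. H2BC21 and H2BC6 were covered to 58.4% and 54.4% of their promoters, and H3-7 to 74.9%.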

How the data were processed

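Peaks were taken from the 4 lists that the authors deposited, whose only measurement is peak positions (chromosome, start and end). Per the labels and methods, paired-end reads were aligned to hg19 with Bowtie2, unique reads were kept, peaks were called with MUSIC and the peaks of the 3 replicates were merged. Reads, Input samples and repeats were not analysed here, and depth is unknown. Overlaps, gaps, base composition and annotation were computed on GRCh37 with 2836 Mb of known sequence and 20098 protein-coding genes of GENCODE lifted to that build. Python 3.11.15, numpy 2.4.6, pandas 2.3.3, scipy 1.17.1, numba 0.67.0 and matplotlib 3.10.9 were used. Overlap and gap code was tested on simulated data and gave the right answer for 8000 of 8000 intervals. Genes were named by fixed rules: the 10 of at least 20 kb most covered by members, the 10 with the most members, the 10 promoters covered whole by the longest members, and up to 4 per gene list by promoter coverage. Other HOX genes and the genes named in windows and runs were named after their values were seen. Sequences came from peaks whose central window had no unknown base or untranslated exon, outside chromosome 8, taking the next peak where one was left out. Some items that these rules name are not reported here. Members and lists were chosen with earlier results of these data known. Alternatives varied the length limit, the margin to other lists, the overlap, the promoter width, the island definition and the annotation.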

Additional observations from a re-analysis of the deposited data

How the results depend on the processing

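The number of H1.2-only peaks was between 31458 (no other list within 1000 bp) and 42199 (overlap counted from 10% of the peak), against 39484, and the mean GC content stayed between 45.1% and 45.8%. The share that met a promoter, 5.11%, was 5.35% with no other list within 1000 bp, 3.79% with TSS ± 500 bp, 8.0% with TSS ± 2500 bp and 11.8% with all annotated genes. The share that met a CpG island, 21.8%, was 23.4% with no other list within 1000 bp, against 23.7% of the other peaks, and 5.52% with islands of at least 500 bp, against 3.23%. The share with its midpoint in a gene, 54.0%, was 54.7% with no other list within 1000 bp, 67.9% with all annotated genes and 55.5% counted in bases. No paired analysis was possible because the 3 replicates of a list were merged before deposit, and leaving out a replicate could not be run for the same reason. Depth is unknown, so a region without a peak may lack reads, which was not tested.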
